A study of Rattus norvegicus with 48 samples.

Results

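The livers described here came from rats that received no thioacetamide (TAA), a hepatotoxicant, and they show how the miRNA profile of vehicle-treated liver differed between 7 and 28 days of dosing. The comparison used 9 of the 48 small RNA libraries of the study, namely the time-matched controls of 7-d (replicates 4, 5 and 6), 14-d (replicates 13, 14 and 15) and 28-d (replicates 16, 17 and 18). All were male Sprague-Dawley rats given vehicle alone once daily, and the liver was taken a day after the last dose. Each library was made from the total RNA of 1 rat. The age of the rats was not given in the sources used here, so the number of days counts dosing and not age. The 28-d group was compared with the 7-d group, with 14-d as the middle point, over the 301 mature miRNAs that reached at least 5 RPM (counts scaled to the total of the library) in at least 3 of the 48 libraries, out of 664 with a read. The treated rats of 7-d and 28-d, given TAA at a low (4.5), a middle (15) or a high (45 mg/kg) dose, were used to ask whether the same changes were seen in rats that shared no library with the controls.

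miRNAs are short RNAs cut from a hairpin precursor, and either strand of the hairpin can be loaded into the Argonaute complex, where the bases after the first one (the seed) pair with target mRNAs. miRNAs with the same seed are grouped into a family, and miRNAs of neighbouring hairpins are often made from 1 transcript. In the liver, miR-122 and miR-192 are abundant in hepatocytes, the miR-29 family is known for targeting collagen mRNAs, miR-34a is induced by p53, and the miRNAs of the imprinted Dlk1-Dio3 region are expressed from the maternal chromosome, mostly in embryo, placenta and brain.

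The 9 control libraries held between 7665439 and 14373693 counts, so that 3 counts corresponded to between 0.209 and 0.391 RPM. Library pairs of 1 group differed by more than counting noise (chi-square per degree of freedom between 96.1 and 495.2), so no library was sequenced again as another of its group. Libraries made separately from the same RNA could also differ by this measure. The 10 most abundant miRNAs took 74.2% of the counts, led by miR-192-5p with 19.5% and miR-22-3p with 19.2%. The 6 miRNAs used as hepatocyte markers summed to between 279277 and 354004 normalized RPM, and the muscle markers miR-206-3p and miR-208a-3p and the pancreas marker miR-216b-5p had no read in the 9 libraries.

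The miRNAs on which the comparison turned are printed below as mature sequences from RefSeq (GRCr8), 5′ to 3′, with the seed (bases 2 to 8) in capitals. They are ordered by seed because several members that share one were called in the same direction. The first set holds the miR-29 family, which was higher at 28-d.
miR-29a-3p: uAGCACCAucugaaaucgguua
miR-29b-3p: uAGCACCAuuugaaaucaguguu
miR-29c-3p: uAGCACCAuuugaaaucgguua
The second set holds lower DEMs from families with more than 1 such member, in the order of the seeds of miR-34a, miR-15b, miR-103 and miR-93.
miR-34a-5p: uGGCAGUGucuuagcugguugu
miR-34c-5p: aGGCAGUGuaguuagcugauugc
miR-449a-5p: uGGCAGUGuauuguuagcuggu
miR-15b-5p: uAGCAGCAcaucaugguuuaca
miR-16-5p: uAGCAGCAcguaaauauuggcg
miR-103-3p: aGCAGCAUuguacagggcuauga
miR-107-3p: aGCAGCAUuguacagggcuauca
miR-93-5p: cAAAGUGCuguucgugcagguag
miR-17-5p: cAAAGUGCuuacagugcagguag
The third set holds miRNAs of the Dlk1-Dio3 region, which were lower at 28-d and share their position on chromosome 6 rather than a seed.
miR-127-3p: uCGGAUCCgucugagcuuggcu
miR-434-3p: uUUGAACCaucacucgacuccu
miR-136-3p: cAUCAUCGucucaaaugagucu
miR-411-5p: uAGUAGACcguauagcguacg
miR-541-5p: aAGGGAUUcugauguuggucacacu

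Between 7-d and 28-d, 64 of the 301 tested miRNAs were differentially expressed miRNAs (DEMs, called at an unadjusted p below 0.05 and a fold change above 1.5 in edgeR's quasi-likelihood F-test), which is 21.3%. Of these, 32 were higher and 32 lower at 28-d (10.6% of the tested miRNAs in each direction). With Benjamini-Hochberg adjustment over all 301, 49 (16.3%) kept an adjusted p below 0.05, of which 27 were higher and 22 lower. That number was 22 without 7-d replicate 4, 25 without 7-d replicate 5, 29 without 28-d replicate 18 and 18 in the fit of all 48 libraries. In 61 of the 64 DEMs, the 3 rats of one group did not overlap with the 3 of the other, whereas 40.9% of all tested miRNAs did not overlap. The equal split rested on the scaling and on the filter. With library size alone in place of upper quartile normalization, 13 of 64 DEMs were higher, and with TMM 19 of 58. With 5 RPM required in 3 of the 9 controls 37 of 57 were higher, and with 5 RPM in each of the 9 controls 35 of 51. The median log2 fold change of all tested miRNAs was 0.04 with upper quartile normalization and -0.16 with library size alone.

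The miRNAs of the imprinted Dlk1-Dio3 region fell, with the lowest median of the 33 lists with a tested member. The list of this region held 85 miRNAs with a read, 6 of which were tested. All 6 were lower DEMs at 28-d, and their median log2 fold change was -1.84 beside 0.04 over all 301. miR-411-5p was at 17, 15.9 and 12.1 normalized RPM in the 7-d controls, at 2.95, 3.78 and 5.17 at 14-d and at 2.79, 1.32 and 3.28 at 28-d. Every 7-d rat was above every later rat, and the log2 fold change from 7-d to 28-d was -2.63 ± 0.32 (SE, edgeR adjusted p = 0.0005).

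miR-434-3p, which lies with miR-127 and miR-136 within the span of the retrotransposon-derived gene Rtl1 (miR-434-3p at chr6:134330451-134330472 and miR-127-3p at chr6:134328510-134328531, GRCr8, plus strand), was at 15.0, 19.97 and 18.3 normalized RPM at 7-d and at 5.25, 3.01 and 5.81 at 28-d (log2 fold change -1.94 ± 0.28, SE, edgeR adjusted p = 0.00076). miR-127-3p, the most abundant tested member, was at 26.1, 31.9 and 27.8 at 7-d and at 15.6, 12 and 7.30 at 28-d (log2 fold change -1.28 ± 0.24, SE, edgeR adjusted p = 0.0029). miR-136-3p was at 7.31, 6.84 and 6.64 at 7-d and at 0.656, 1.13 and 1.49 at 28-d (log2 fold change -2.72 ± 0.41, SE, edgeR adjusted p = 0.00076). In each of these miRNAs the groups were apart. The remaining members were near the lower end of the measurement, miR-136-5p with a log2 fold change of -1.75 ± 0.61 and miR-541-5p with -1.21 ± 0.45 (SE), and neither passed the adjusted threshold (edgeR adjusted p = 0.063 and 0.079). miR-136-5p was not a DEM without 28-d replicate 16 (-1.57), nor miR-541-5p without 7-d replicate 4 (-1.14), 7-d replicate 5 (-0.94) or 28-d replicate 18 (-1.05).

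**Figure D1:**
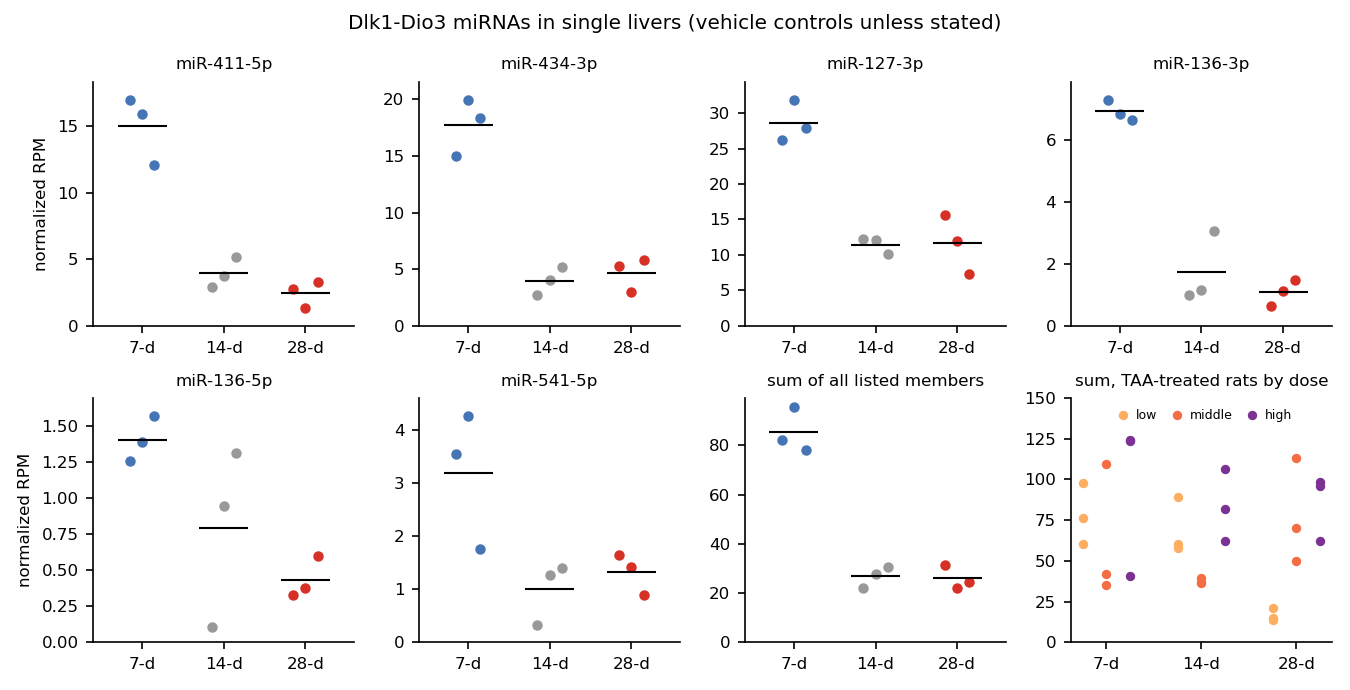
Normalized RPM (linear axes from 0) of the 6 tested Dlk1-Dio3 miRNAs and of the sum of all 85 listed members in each of the 3 control livers per time point (points; the black bar is the group mean), and, in the last panel, the same sum in each TAA-treated rat at the low, middle and high dose. The sum was between 77.9 and 95.5 in the 7-d controls and between 22.1 and 31.4 at 14-d and 28-d. The spread differed between treated groups, from between 36.7 and 39.8 (middle dose, 14-d) to between 40.9 and 124 (high dose, 7-d).

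The 6 tested members also passed the filter on low values when the 7-d and 28-d controls were left out of it, so the filter did not fix their direction. The sum of all 85 listed members, tested or not, was 82.2, 95.5 and 77.9 normalized RPM in the 7-d controls, 22.1, 27.8 and 30.5 at 14-d and 31.4, 22.2 and 24.7 at 28-d. All 7-d rats were above all later rats, and the 14-d and 28-d rats overlapped. Among the 79 members that were not tested, 58 had a read at 7-d or 28-d, and the mean was higher at 7-d in 41 of them and higher at 28-d in 17. The H19 and Igf2 list, the other imprinted list, had 4 miRNAs with a read and none that was tested.

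The miR-29 family rose over time. Of its 5 tested members 4 were higher DEMs and none was lower, with a median log2 fold change of 0.69, although only 2 of them remained DEMs with library size alone. miR-29b-3p was at 18, 20.4 and 21.5 normalized RPM at 7-d, at 28.7, 27.1 and 34 at 14-d and at 42.8, 49.5 and 55.5 at 28-d. The 3 time points did not overlap with each other, and the log2 fold change from 7-d to 28-d was 1.30 ± 0.17 (SE, edgeR adjusted p = 0.00065). miR-29c-3p rose from 267, 291 and 263 to 488, 585 and 619 (log2 fold change 1.04 ± 0.15, SE, edgeR adjusted p = 0.00076). miR-29a-3p, the most abundant member, rose from 2442, 2592 and 2524 to 3721, 4346 and 4094 (log2 fold change 0.69 ± 0.12, SE, edgeR adjusted p = 0.002). The hairpin of miR-29a lies on chromosome 4 and that of miR-29c on chromosome 13, whereas miR-29b-3p has 2 loci, between which its reads were not divided. The opposite strand miR-29a-5p was higher by 0.61 ± 0.25 (SE, edgeR adjusted p = 0.10) and miR-29c-5p was not a DEM (0.26 ± 0.24). Without 7-d replicate 4 or 6 or 28-d replicate 17 or 18, miR-29a-5p was not a DEM (between 0.52 and 0.60). miR-29a-3p and miR-29c-3p are close in sequence, so reads with an error could have been counted for either.

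Several other miRNAs that are well known in liver were higher at 28-d. miR-21, whose guide strand is induced in injured and proliferating tissue, was higher with both strands. The strand miR-21-3p was at 94.3, 108 and 72.4 normalized RPM at 7-d, at 217, 161 and 247 at 14-d and at 242, 204 and 234 at 28-d (log2 fold change 1.30 ± 0.20, SE, edgeR adjusted p = 0.00076). The guide miR-21-5p was at 34491, 36519 and 22882 at 7-d and at 58000, 41225 and 49698 at 28-d (log2 fold change 0.67 ± 0.16, SE, edgeR adjusted p = 0.016), the only DEM among the 10 most abundant miRNAs. In both strands every 14-d rat was above every 7-d rat, and the 14-d and 28-d rats overlapped. miR-21-5p was under the fold threshold without 7-d replicate 6 (log2 fold change 0.48) or 28-d replicate 16 (0.54), and with TMM (0.57) or library size alone (0.46).

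miR-338-3p, encoded within the span of the kinase gene Aatk, rose from 37.7, 42.1 and 45.0 normalized RPM at 7-d to 76.3, 84.6 and 92.6 at 28-d, with no overlap (log2 fold change 1.02 ± 0.15, SE, edgeR adjusted p = 0.00076). miR-193a-3p rose from 228, 264 and 267 to 443, 550 and 529, also with no overlap (log2 fold change 1.01 ± 0.16, SE, edgeR adjusted p = 0.00085), whereas its opposite strand miR-193a-5p had a log2 fold change of -0.38 ± 0.22 and was not a DEM. In the miR-193 and miR-365 list, miR-193a-3p was the only DEM among 4 tested miRNAs.

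**Figure D2:**
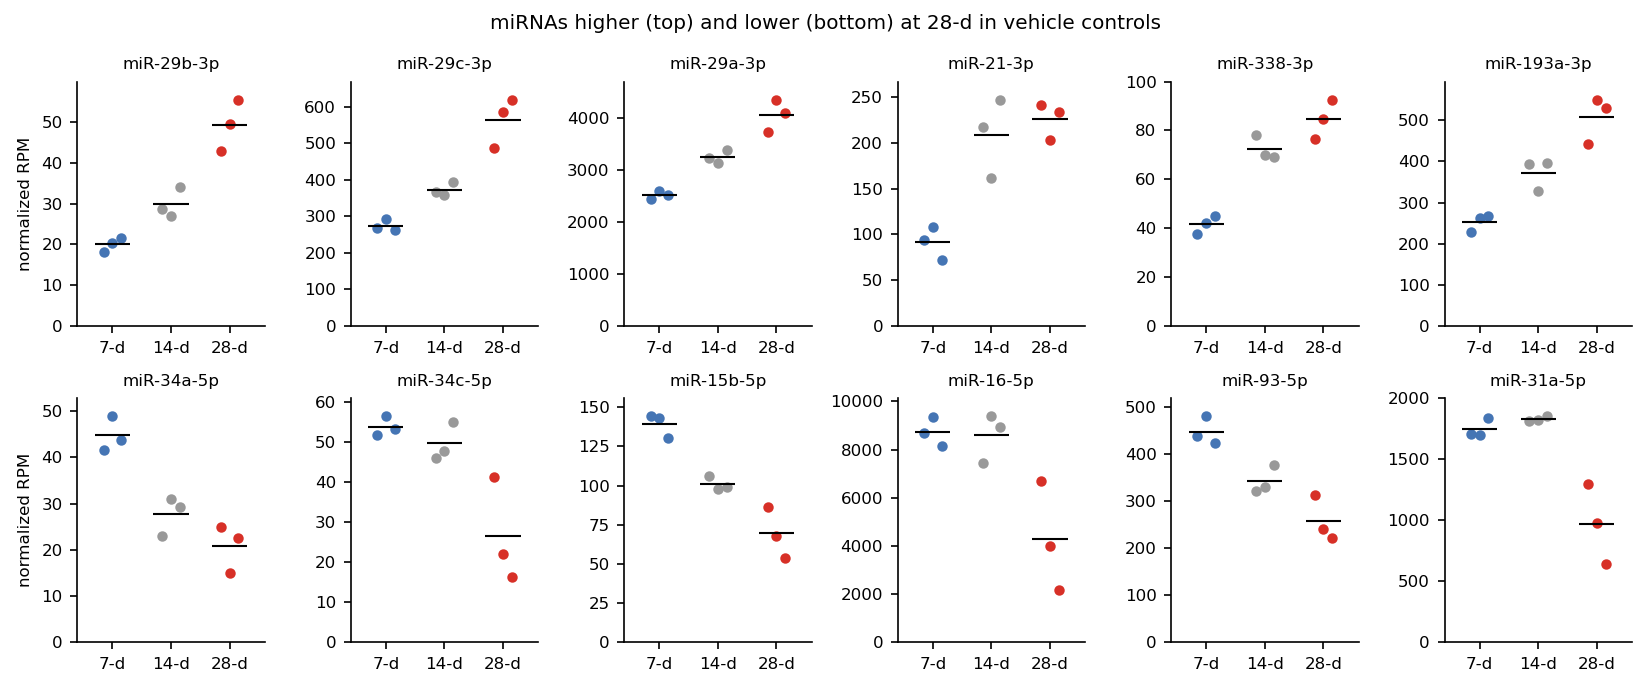
Normalized RPM (linear axes from 0) of 6 miRNAs that were higher (top row) and 6 that were lower (bottom row) at 28-d, in each of 3 vehicle control livers per time point (points; the black bar is the group mean). The rats of miR-29b-3p, miR-29c-3p and miR-29a-3p did not overlap between any time points, whereas those of miR-34c-5p, miR-16-5p and miR-31a-5p overlapped at 7-d and 14-d and were lower at 28-d, with replicate 18 the lowest rat in these panels of the bottom row.

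Of the hepatocyte list, 3 of 11 tested miRNAs were higher and none was lower (median log2 fold change 0.26). The defining hepatocyte miRNA miR-122-5p was not a DEM, with 33564, 34146 and 32766 normalized RPM at 7-d and 40734, 29014 and 35124 at 28-d (log2 fold change 0.06 ± 0.13, SE). Its opposite strand miR-122-3p rose from 1508, 1329 and 1429 to 1968, 2617 and 2880 (log2 fold change 0.81 ± 0.17, SE, edgeR adjusted p = 0.0066), and the difference between the strands was not tested. miR-101a-3p rose from 1580, 1785 and 1664 to 2885, 2507 and 3672 (log2 fold change 0.85 ± 0.16, SE, edgeR adjusted p = 0.0033) and its opposite strand miR-101a-5p by 0.80 ± 0.22 (edgeR adjusted p = 0.026). miR-192-5p (log2 fold change 0.26 ± 0.09) and miR-148a-3p (0.01 ± 0.12) were not DEMs.

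miRNAs of lipid and glucose metabolism moved in both directions, with 2 of 7 tested members higher and 2 lower. miR-33-5p, which lies in the gene of the sterol regulator SREBP and targets cholesterol transporters, rose from 19.4, 15.6 and 18.9 to 30.5, 29.8 and 34.2 normalized RPM (log2 fold change 0.81 ± 0.17, SE, edgeR adjusted p = 0.0072). miR-378a-5p, from an intron of the metabolic coactivator gene Ppargc1b, was higher by 0.66 ± 0.22 (edgeR adjusted p = 0.049) but not without 28-d replicate 17 (0.58) or 18 (0.54), while its abundant partner miR-378a-3p had -0.06 ± 0.11. The lower members were miR-103-3p and miR-107-3p, described with their seed below.

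The 3 tested miRNAs with the seed GGCAGUG were all lower at 28-d. miR-34a-5p, the p53 target, was at 41.6, 48.9 and 43.7 normalized RPM at 7-d, at 22.9, 31 and 29.2 at 14-d and at 24.9, 14.9 and 22.6 at 28-d (log2 fold change -1.10 ± 0.21, SE, edgeR adjusted p = 0.0029). The 7-d rats were above all later ones. miR-34c-5p was at 51.6, 56.4 and 53.3 at 7-d, at 46, 47.7 and 55.0 at 14-d and at 41.3, 22.1 and 16.2 at 28-d (log2 fold change -1.01 ± 0.27, SE, edgeR adjusted p = 0.021). Its 7-d and 14-d rats overlapped, and the 28-d rats were below both with a wide spread between them. miR-449a-5p, a low-level member from another chromosome, had a log2 fold change of -0.91 ± 0.32 (SE, edgeR adjusted p = 0.063) and was not a DEM without 7-d replicate 5 (-0.84).

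The families that share the seed of miR-15b, which restrain the cell cycle, of miR-103 and of miR-93, which promotes proliferation, also had lower members. The miR-15/miR-16/miR-195/miR-497 list had 3 lower DEMs and none higher among 9 tested miRNAs (median log2 fold change -0.41). miR-15b-5p fell from 144, 143 and 130 normalized RPM at 7-d to 86.5, 67.9 and 54.0 at 28-d (log2 fold change -1.0 ± 0.18, SE, edgeR adjusted p = 0.002), and its opposite strand miR-15b-3p had a log2 fold change of -0.83 ± 0.22 (edgeR adjusted p = 0.021). miR-16-5p, encoded beside miR-15b within the span of Smc4, was at 8668, 9367 and 8132 at 7-d, at 7447, 9387 and 8917 at 14-d and at 6692, 3983 and 2179 at 28-d (log2 fold change -1.03 ± 0.28, SE, edgeR adjusted p = 0.026). The 28-d rats thus differed among themselves by more than the 7-d and 14-d rats together.

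miR-103-3p and miR-107-3p, which lie within the spans of the pantothenate kinase genes Pank2 and Pank1 and regulate insulin sensitivity, had log2 fold changes of -0.75 ± 0.20 and -0.91 ± 0.21 (SE, edgeR adjusted p = 0.023 and 0.013). miR-107-3p was at 471, 505 and 418 normalized RPM at 7-d and at 316, 251 and 174 at 28-d. These miRNAs are nearly identical in sequence, so part of their reads may have been counted for the wrong one, and miR-103-3p was no longer a DEM without 28-d replicate 18 (-0.55).

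In the miR-17 to miR-92a list, which holds the miR-106b/93/25 cluster as well, 5 of 16 tested miRNAs were lower and 1 was higher (median log2 fold change -0.36). miR-93-5p, within the span of the replication gene Mcm7, fell from 437, 480 and 422 normalized RPM to 312, 240 and 221 (log2 fold change -0.79 ± 0.17, SE, edgeR adjusted p = 0.0063), and miR-17-5p with the same seed from 134, 156 and 149 to 106, 89.5 and 77.7 (log2 fold change -0.68 ± 0.17, edgeR adjusted p = 0.016; -0.58 and not a DEM without 28-d replicate 18). The most abundant members, miR-92a-3p (log2 fold change -0.25 ± 0.13) and miR-25-3p (-0.21 ± 0.15), were not DEMs. The 4 tested miRNAs with the seed AAAGUGC had log2 fold changes between -0.79 and -0.35.

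Outside these families, miR-31a-5p was at 1705, 1700 and 1840 normalized RPM at 7-d, at 1810, 1824 and 1854 at 14-d and at 1297, 975 and 641 at 28-d (log2 fold change -0.85 ± 0.20, SE, edgeR adjusted p = 0.015). Its 7-d and 14-d rats overlapped, and every 28-d rat was below them. Its opposite strand miR-31a-3p was not a DEM (-0.19 ± 0.22). miR-6324 fell from 15.0, 12.6 and 12.2 to 4.43, 7.15 and 6.25 (log2 fold change -1.16 ± 0.27, SE, edgeR adjusted p = 0.013), but was not a DEM in the fit of all 48 libraries (edgeR unadjusted p = 0.10).

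Since liver tissue is a mixture, fewer cells of a type and less RNA per cell cannot be told apart in these libraries. Among the miRNAs that mark other cells, 3 of 7 tested leukocyte miRNAs were higher. They were miR-142-3p, with 113, 128 and 133 normalized RPM at 7-d and 184, 205 and 259 at 28-d (log2 fold change 0.79 ± 0.20, SE, edgeR adjusted p = 0.016), miR-142-5p by 0.59 ± 0.15 and miR-155-5p by 0.70 ± 0.19. The other 4 tested members, among them the abundant miR-146a-5p, were not DEMs. The list had a median log2 fold change of 0.26 and a lowest value of -0.20. With library size alone none of the 3 higher miRNAs was a DEM, and miR-142-5p was under the fold threshold without 7-d replicate 4 (0.52), 7-d replicate 5 (0.57) or 28-d replicate 18 (0.50). The 6 leukocyte markers summed to between 3885 and 4897 normalized RPM at 7-d and between 5324 and 6664 at 28-d, so these sums did not overlap. The sums of the 2 endothelial markers (between 19651 and 22545 at 7-d, and between 28159 and 32448 at 28-d) and of the 6 hepatocyte markers (between 279277 and 312499, and between 331382 and 354004) were also higher at 28-d with no overlap. This separation rested in part on the scaling. With library size alone in place of upper quartile normalization, the leukocyte and the hepatocyte sums of 7-d and 28-d overlapped, and the endothelial sums did not.

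The endothelial strand miR-126a-5p rose from 14696, 17363 and 16169 normalized RPM to 22767, 24288 and 26332 (log2 fold change 0.61 ± 0.11, SE, edgeR adjusted p = 0.002), close to the fold threshold (0.55 and not a DEM without 7-d replicate 4 or 28-d replicate 18), whereas miR-126a-3p had 0.20 ± 0.12 and was not a DEM. In the red blood cell list, miR-144-3p rose from 49.9, 54.4 and 39.4 to 95.3, 92.5 and 159 (log2 fold change 1.27 ± 0.24, SE, edgeR adjusted p = 0.0031). The defining red cell miRNAs were not DEMs. miR-451-5p, made from the neighbouring hairpin, had a log2 fold change of -0.01 ± 0.26, miR-486 of -0.33 ± 0.22 and the opposite strand miR-144-5p of -0.16 ± 0.26. The 4 red cell markers summed to between 3815 and 6241 normalized RPM at 7-d and between 2954 and 5297 at 28-d.

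The bile duct and epithelium list had 1 higher and 2 lower DEMs among 6 tested miRNAs. miR-200b-3p fell from 661, 685 and 650 normalized RPM to 267, 564 and 318 (log2 fold change -0.80 ± 0.24, SE, edgeR adjusted p = 0.038) and miR-200a-5p had -0.91 ± 0.35 (edgeR adjusted p = 0.085). The latter was not a DEM without 7-d replicate 4, 28-d replicate 17 or 28-d replicate 18 (-0.81, -0.67 and -0.75). In contrast, miR-141-3p rose from 57.2, 71.5 and 61.6 to 125, 134 and 104 (log2 fold change 0.94 ± 0.25, SE, edgeR adjusted p = 0.023). In the fit of all 48 libraries miR-200b-3p was not a DEM (edgeR unadjusted p = 0.081). miR-429, of the same cluster as miR-200b, was not a DEM (-0.02 ± 0.18). None of 7 tested stellate and smooth muscle miRNAs was a DEM, among them miR-143-3p (-0.38 ± 0.15) and miR-199a-3p (0.36 ± 0.19). The markers of this list summed to between 40677 and 45934 normalized RPM at 7-d and between 26572 and 43917 at 28-d.

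Markers of other organs were scarce. In the muscle list miR-133a-3p rose from 4.22, 4.99 and 6.08 to 9.44, 13.3 and 10.9 normalized RPM (log2 fold change 1.13 ± 0.35, SE, edgeR adjusted p = 0.042), and miR-499-5p had 0.30 ± 0.23. In the fit of all 48 libraries miR-133a-3p was not a DEM (edgeR unadjusted p = 0.072). In the kidney list the single tested miRNA, miR-204-5p, rose from 41.6, 46.2 and 41 to 87.7, 100 and 55.4 (log2 fold change 0.92 ± 0.27, SE, edgeR adjusted p = 0.030), but was not a DEM in the fit of all 48 libraries (edgeR unadjusted p = 0.16). The single tested pancreas miRNA, miR-375-3p (-0.07 ± 0.19), and the 4 tested brain miRNAs, among them miR-128-3p (0.05 ± 0.19) and miR-138-5p (-0.29 ± 0.27), were not DEMs.

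Several families held no DEM. The 9 let-7 guide strands, which share the seed GAGGUAG and are known for promoting differentiation, had log2 fold changes between -0.35 and 0.56, among them let-7a-5p (-0.06 ± 0.17) and let-7f-5p (0.56 ± 0.21). There was also no DEM among 7 tested miRNAs of the miR-181 list (miR-181a-5p 0.18 ± 0.19, miR-181c-5p 0.09 ± 0.18), 8 of the miR-322/miR-503/miR-450/miR-542 list (miR-322-5p -0.21 ± 0.18, miR-351-5p -0.32 ± 0.19), 3 of the miR-183/miR-96/miR-182 list (miR-182 0.32 ± 0.20, miR-183-5p 0.52 ± 0.28), 3 of the miR-221/miR-222 list (miR-221-3p -0.46 ± 0.20, miR-222-3p 0.13 ± 0.19) and 3 of the miR-132/miR-212 list (miR-132-3p -0.29 ± 0.33, miR-212-3p -0.14 ± 0.43). The same held for both strands of miR-22, with 0.24 ± 0.08 for miR-22-3p and -0.02 ± 0.16 for miR-22-5p, and for 6 tested miRNAs of the miR-466 and miR-297 list (miR-466c-5p 0.03 ± 0.19, miR-466b-5p -0.21 ± 0.27). The errors in this paragraph are SEs of log2 fold changes from 3 rats against 3. The miR-466 and miR-297 list had a median of 0.54, with 5 of 6 above 0. From 7-d to 14-d 4 of its 6 members were higher DEMs (median 1.23), and from 14-d to 28-d 2 were lower DEMs. With adjusted p 0 remained in each interval. Its members miR-466b-2-3p and miR-466b-4-3p held identical counts in the controls, so they do not count separately.

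A few families had single DEMs. One of 3 tested miR-26 miRNAs was higher, miR-26b-3p by 0.63 ± 0.20, and the abundant miR-26a-5p, at 70435, 71678 and 68038 normalized RPM at 7-d and at 91257, 98088 and 100457 at 28-d, passed the adjusted threshold (edgeR adjusted p = 0.002) but not the fold threshold (log2 fold change 0.46 ± 0.08, SE). In the miR-30 list 1 of 11 was higher (miR-30d-3p by 0.60 ± 0.18), and miR-30a-5p had 0.34 ± 0.13. In the miR-99/miR-100 and miR-125 list 2 of 9 were higher (miR-125b-5p by 0.60 ± 0.15 and miR-99a-3p by 0.66 ± 0.20), and miR-125a-5p had 0.37 ± 0.16. These 4 higher DEMs lay close to the fold threshold, and each lost its call without at least 1 of 7-d replicate 4, 5 or 6 or 28-d replicate 16 or 18. miR-26b-3p had a log2 fold change of 0.53 or 0.42 without replicate 4 or 18, and miR-30d-3p of 0.57 or 0.49 without replicate 6 or 16. miR-125b-5p had 0.54, 0.58 or 0.52 without replicate 4, 5 or 18, and miR-99a-3p had 0.47 without replicate 16.

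Lower single DEMs were found in the miR-23/miR-27/miR-24 list, with 2 of 9 (miR-27a-5p with -1.12 ± 0.36 and miR-27b-5p with -0.82 ± 0.23) while the abundant strands miR-27b-3p (0.04 ± 0.12) and miR-23b-3p (0.18 ± 0.17) were not DEMs. The miR-148/miR-152 list had 1 of 6 (miR-152-5p with -0.68 ± 0.19) and the miR-130/miR-301 list 1 of 3 (miR-130b-3p with -0.60 ± 0.25), with miR-130a-3p at -0.51 ± 0.16 and miR-301a-3p at -0.52 ± 0.15. miR-27a-5p was not a DEM without 7-d replicate 6 (-0.79), nor miR-152-5p without 28-d replicate 17 (-0.52), nor miR-130b-3p without 7-d replicate 5 (-0.54) or 6 (-0.52) or 28-d replicate 17 (-0.61) or 18 (-0.47). In the miR-10 list 1 of 3 was lower: miR-10b-5p was at 1974, 2410 and 566 normalized RPM at 7-d and at 397, 1027 and 402 at 28-d. These groups overlapped (log2 fold change -1.44 ± 0.50, SE, edgeR adjusted p = 0.061), and miR-10b-5p was not a DEM when 7-d replicate 5 (-1.06), 28-d replicate 16 (-1.21) or 28-d replicate 18 (-1.21) was left out, while miR-10a-5p had 0.32 ± 0.13. miR-455-3p, with 65.6, 71.6 and 51.1 at 7-d, 175, 77.4 and 115 at 14-d and 63.2, 159 and 81.4 at 28-d, was not a DEM (0.69 ± 0.33), although it was called without 28-d replicate 16 (0.94) or 18 (0.82), with other filters and in a fit of the 6 libraries alone.

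**Figure D3:**
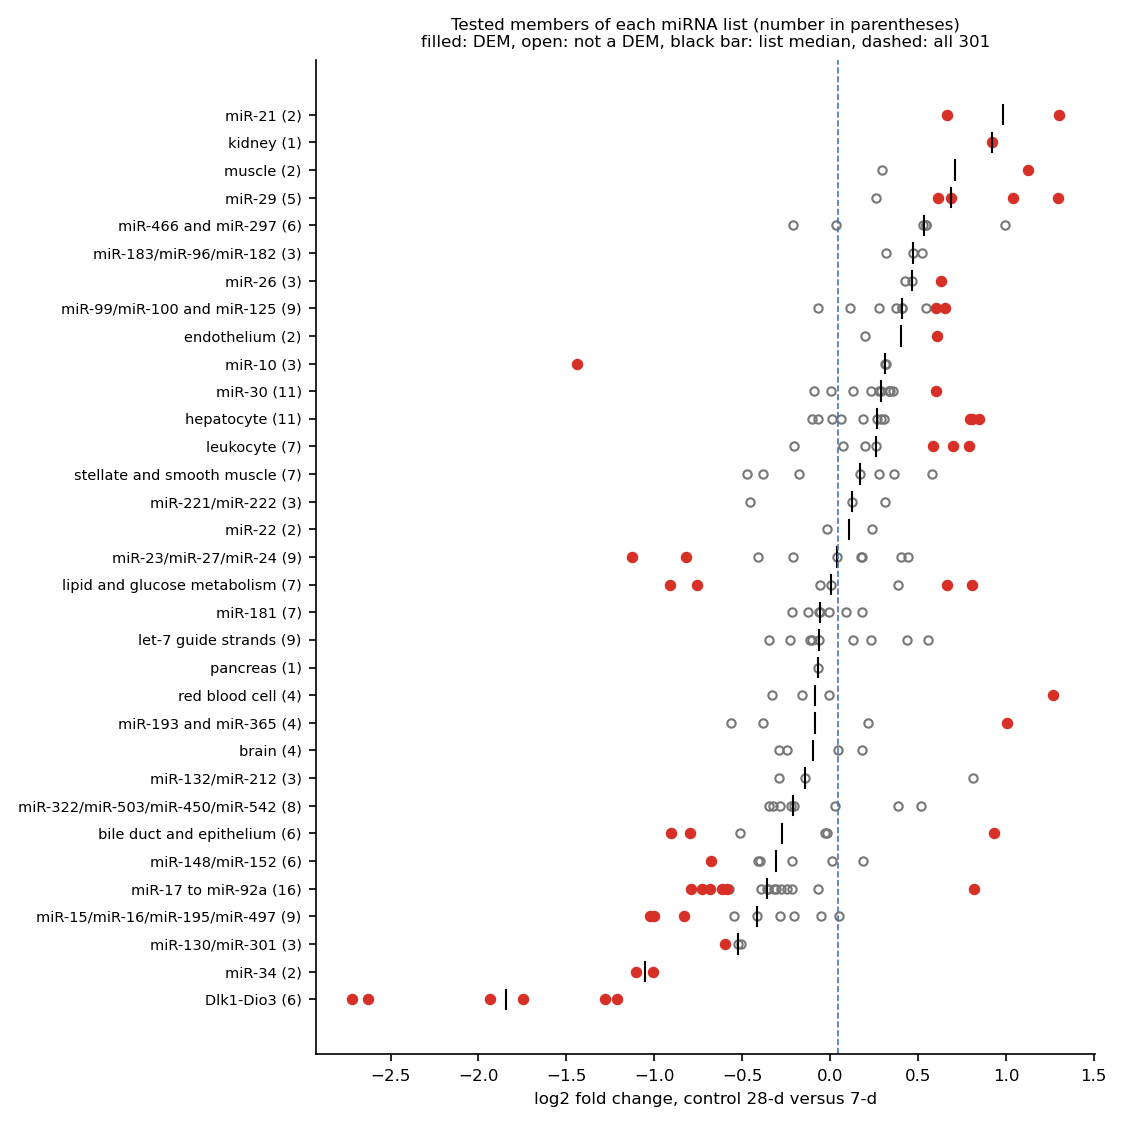
Log2 fold change from 7-d to 28-d in the controls (x axis) of each tested member of 33 miRNA lists (y axis, number of tested members in parentheses), with filled points for DEMs, open points for other miRNAs, a black bar for the median of the list and a dashed line for the median of all 301 tested miRNAs. The 6 Dlk1-Dio3 miRNAs lie at the left, between -2.72 and -1.21, and the miR-29 list lies at the right with 4 of 5 members called.

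Among the 88 hairpins with 1 tested miRNA from each strand, 31 had a DEM on at least 1 strand. A hairpin was counted if either strand was called, and 21.3% of all 301 tested miRNAs were DEMs, so this count shows no excess. In 8 of the 31 both strands were DEMs, in the same direction in 8 of 8, and in 7 of the 31 the strands had opposite signs, as in miR-144 and miR-193a. Whether the strands differed in sign less often than in the other hairpins was not tested.

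The 14-d controls were used to place these changes in time. From 7-d to 14-d, 31 miRNAs (10.3%) were DEMs, 18 higher and 13 lower, and 12 kept an adjusted p below 0.05 (6 without 14-d replicate 15, and 2 in the fit of all 48 libraries). The split was 10 higher to 19 lower without upper quartile normalization (library size alone) and 18 to 36 with no filter. From 14-d to 28-d, 23 (7.64%) were DEMs, 6 higher and 17 lower, and 4 kept an adjusted p below 0.05. With 5 RPM in each of the 9 controls 12 of 19 were higher, and with no filter 22 of 41. When 1 library was left out, 15 had an adjusted p below 0.05 without 28-d replicate 16, 1 without 14-d replicate 14 and 0 without any other library. Of the 64 DEMs of 28-d versus 7-d, 19 were also DEMs of the first interval, 8 of the second, 0 of both and 37 of neither, and in 54 of 64 the 14-d mean lay between those of 7-d and 28-d, as it did in 146 of all 301. The 64 were chosen for a difference between the outer time points, so their share gives no test. The intervals share the 14-d rats with opposite sign, and each shares rats with the whole comparison, so these counts are not independent.

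The first interval was led by miR-434-3p (log2 fold change -2.14 ± 0.29, SE, edgeR adjusted p = 0.0013), miR-411-5p (-1.90 ± 0.30, edgeR adjusted p = 0.0039) and miR-21-3p (1.19 ± 0.20, edgeR adjusted p = 0.0045). The second was led by miR-210-3p, a hypoxia-induced miRNA, which was at 96.3, 82.1 and 75.6 normalized RPM at 14-d and at 54.5, 50.4 and 46.9 at 28-d (-0.74 ± 0.15, SE, edgeR adjusted p = 0.046). The liver and pancreas miRNA miR-802-5p rose from 554, 755 and 714 to 913, 1408 and 1409 (0.88 ± 0.19, SE, edgeR adjusted p = 0.046), and miR-195-5p fell from 791, 697 and 717 to 510, 413 and 306 (-0.84 ± 0.18, SE, edgeR adjusted p = 0.046). These 3 lost their adjusted call in each fit above that gave 0 for this interval.

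Against the mean of 7-d and 28-d, 18 miRNAs (5.98%) were DEMs at 14-d, 10 higher and 8 lower. None kept an adjusted p below 0.05 in the edgeR fit of the 9 controls (42 had an unadjusted p below 0.05). In other fits 5 did in the Wald test of DESeq2 and 11 in edgeR with no filter. With a library left out in edgeR, 8 did without 28-d replicate 16 and 0 or 1 without any other library. The 3 with the smallest p among those without overlap were miR-802-5p (log2 difference -0.74 ± 0.17, SE, edgeR adjusted p = 0.086), its opposite strand miR-802-3p (-0.62 ± 0.17, edgeR adjusted p = 0.11) and miR-195-5p (0.64 ± 0.15, edgeR adjusted p = 0.086). miR-802-5p was at 977, 1001 and 1097 normalized RPM at 7-d, above every 14-d rat, and 2 of the 3 28-d rats were above every 7-d rat.

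Time changes in the treated rats were set beside those of the controls. In the fit of all 48 libraries, 67 miRNAs (22.3%) were DEMs from 7-d to 28-d at the low dose, 17 (5.65%) at the middle dose and 48 (15.9%) at the high dose. The controls had 47 DEMs in that fit, whereas their 64 DEMs came from the fit of the 9 controls. Of the 64 DEMs of the controls, 56 had the same sign at the low dose (87.5%, beside 68.1% of all 301), 49 at the middle dose (76.6%, beside 60.1%) and 50 at the high dose (78.1%, beside 62.8%). DEMs in the same direction were 18 at the low dose, 6 at the middle dose and 10 at the high dose, and DEMs in the opposite direction were 1, 1 and 0. Across the 301 miRNAs, which are not independent replicates, the Spearman correlation with the log2 fold change of the controls was 0.51 at the low dose, 0.28 at the middle dose and 0.27 at the high dose. No library was shared between the treated and control time changes.

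The 6 tested Dlk1-Dio3 miRNAs were lower DEMs at the low dose too, with miR-411-5p at -3.08 ± 0.60 and miR-434-3p at -3.74 ± 0.58 on the log2 scale (SE, edgeR adjusted p = 0.0014 and 5.3e-05). The sum of the 85 listed members was between 60.6 and 97.8 normalized RPM at 7-d and between 14.0 and 21.4 at 28-d at the low dose, with no overlap. The timing differed from that of the controls. At 14-d the low dose rats were between 58.1 and 89.3 and overlapped those of 7-d, whereas the 14-d controls were below every 7-d control. At the middle dose the sum was between 35 and 109.6 at 7-d and between 49.8 and 113 at 28-d, and at the high dose between 40.9 and 124 and between 62.3 and 98.5, so these groups overlapped. miR-411-5p had log2 fold changes of 0.03 ± 0.53 and -0.26 ± 0.53 at the middle and high dose, and these differed from the fall in the controls by 2.66 ± 0.79 and 2.36 ± 0.79, DEMs by the unadjusted threshold (edgeR adjusted p = 0.11 for both). Of the 6 tested members, miR-434-3p was a lower DEM at the middle dose as in the controls. It was the only DEM of the list at that dose, and 0 were DEMs at the high dose (median log2 fold change -0.34 and -0.15). The sum was 228 and 68.7 in 2 of the 3-d controls, which differed from each other by more than the 7-d and 28-d controls did, while the other 3-d library held only 293331 counts.

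The miR-29 family was also higher at 28-d at the low dose, with log2 fold changes of 1.21 ± 0.25 for miR-29a-3p, 0.82 ± 0.24 for miR-29b-3p and 1.14 ± 0.24 for miR-29c-3p (SE, edgeR adjusted p = 0.0018, 0.019 and 0.0018). At the middle dose miR-29b-3p was a higher DEM as in the controls and the only DEM of its list (list median 0.37). At the high dose no member of the list was a DEM (list median 0.27). There miR-29b-3p had 0.06 ± 0.23, which differed from its rise in the controls by -1.24 ± 0.33 (edgeR adjusted p = 0.063). At the high dose miR-193a-3p (1.17 ± 0.27), miR-122-3p (0.82 ± 0.17) and miR-144-3p (2.22 ± 0.47) were higher DEMs as in the controls (edgeR adjusted p = 0.0037, 0.0022 and 0.0022).

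**Figure D4:**
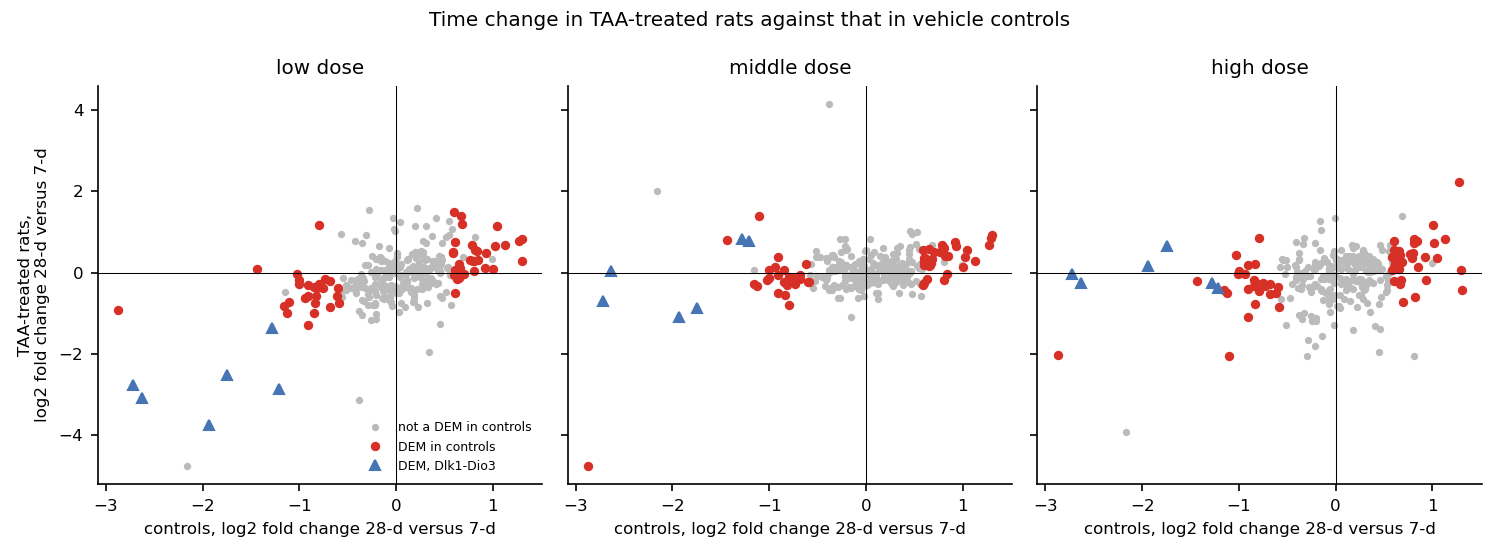
Log2 fold change from 7-d to 28-d in vehicle controls (x axis) against that in rats given the low, middle or high dose of TAA (y axis, 1 panel per dose) for the 301 tested miRNAs, with DEMs of the controls in red and the 6 Dlk1-Dio3 miRNAs as blue triangles. The triangles lie in the lower left at the low dose, between -1.09 and 0.84 at the middle dose and between -0.37 and 0.65 at the high dose, and 56, 49 and 50 of the 64 DEMs had the same sign as in the controls.

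The difference between the time change of each dose and that of the controls was tested in 1 fit of the 48 libraries. It gave 40 DEMs (13.3%) at the low dose, 29 (9.63%) at the middle dose and 47 (15.6%) at the high dose, with 0, 0 and 1 at an adjusted p below 0.05 in edgeR. There were 42, 29 and 48 miRNAs at an unadjusted p below 0.05, and 11, 7 and 11 DEMs with an adjusted p below 0.05 in DESeq2. At the low dose 14 of 40 were higher, but 37 of 42 with library size alone and 23 of 35 with TMM, and at the middle dose 21 of 29 were higher, but 33 of 36 with library size alone. The high dose difference that passed was that of miR-6329, at 29.8, 28.1 and 27.6 normalized RPM in the 7-d and 44, 38.1 and 34.7 in the 28-d controls. At the high dose it was between 213 and 235 at 7-d and between 50.7 and 62.4 at 28-d (log2 difference of the time changes -2.40 ± 0.41, SE, edgeR adjusted p = 0.00024).

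The next differences at the high dose were those of miR-16-5p (1.46 ± 0.38, edgeR adjusted p = 0.059) and miR-29b-3p, given above. At the middle dose they were those of miR-122-3p (-0.99 ± 0.25, edgeR adjusted p = 0.087), miR-34a-5p (2.51 ± 0.69, edgeR adjusted p = 0.11) and miR-31a-5p (0.92 ± 0.26, edgeR adjusted p = 0.11). miR-34a-5p was between 14.9 and 48.9 normalized RPM in the controls of 7-d and 28-d, and in the middle dose rats it was between 188 and 295 at 7-d and between 423 and 768 at 28-d. At the high dose, in contrast, miR-34a-5p was a lower DEM from 7-d to 28-d, as in the controls. At the low dose the leading differences were those of miR-3585-5p (-2.29 ± 0.61), miR-1843b-5p (-0.91 ± 0.25) and miR-93-3p (1.53 ± 0.48), with edgeR adjusted p = 0.15, 0.15 and 0.19. The controls enter each of these differences, so a miRNA that fell in the controls alone gives a positive difference at every dose.

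Base composition moved with time in the controls. Of the 301 tested miRNAs, 270 (89.7%) had a RefSeq sequence. Their median GC content was 45.6%, that of 31 higher DEMs 40% and that of 30 lower DEMs 47.8%. The Spearman correlation of the log2 fold change with GC content across these 270 miRNAs was -0.35 for 28-d versus 7-d, -0.19 for the first interval and -0.26 for the second. For the 28-d versus 7-d change of the treated rats it was -0.16 at the low, -0.21 at the middle and -0.09 at the high dose. The part of base composition in the correlation between treated rats and controls was not tested. The slope of the log2 level on GC content was 0.08, 0.05 and 0.08 per 10 points in the 7-d libraries, -0.01, 0.04 and -0.01 in the 14-d libraries and -0.06, -0.05 and -0.12 in the 28-d libraries.

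**Figure D5:**
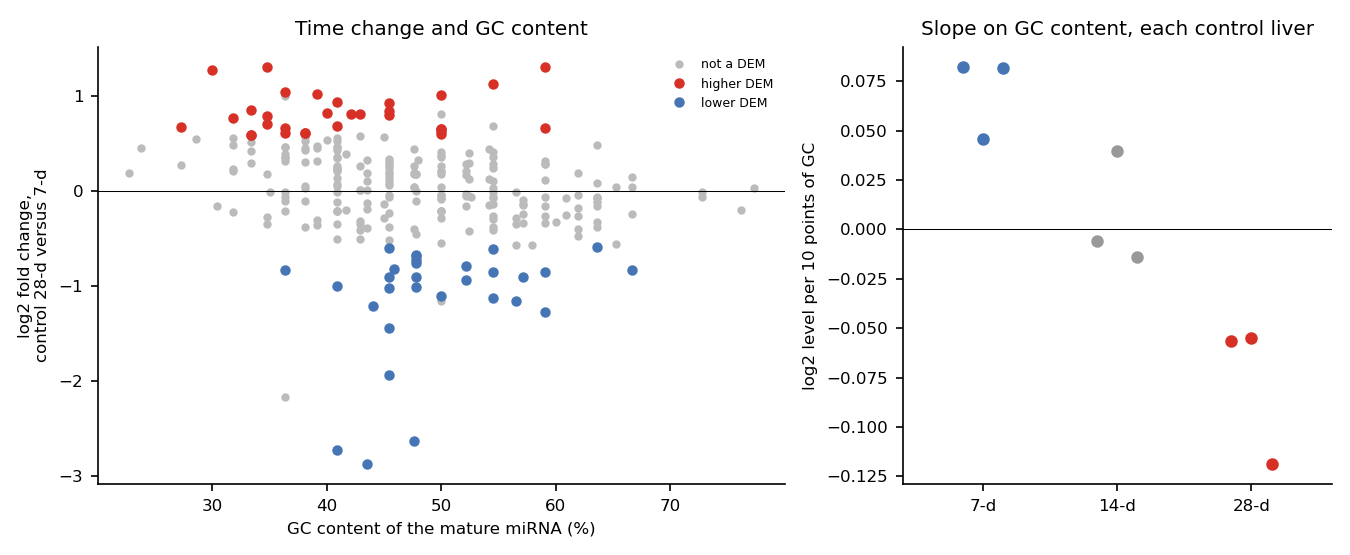
Left, log2 fold change from 7-d to 28-d in the controls (y axis) against the GC content of the mature miRNA in percent (x axis) for the 270 tested miRNAs with a sequence, with higher DEMs in red and lower DEMs in blue; right, slope of the log2 level on GC content in each control library by time point (log2 units per 10 points of GC). Higher DEMs lie toward low GC (median 40%) and lower DEMs near 47.8%, and the slopes are above 0 in the 3 libraries of 7-d and below 0 in the 3 of 28-d.

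With a straight line on GC content taken out of each library, 45 of the 61 DEMs with a sequence remained DEMs, 21 of 31 higher and 24 of 30 lower, and all 61 kept their sign. The log2 fold change was then still -2.61 for miR-411-5p, -1.95 for miR-434-3p, 1.13 for miR-29b-3p and 0.90 for miR-29c-3p. Among those described, miR-126a-5p, miR-142-5p, miR-155-5p, miR-200a-5p, miR-21-5p and miR-29a-5p were no longer DEMs in this fit, which was chosen after the data were seen. The part of base composition in the other calls was not tested.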

How the data were processed

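Small RNA of 48 rat livers was sequenced, and the 9 vehicle controls of 7-d, 14-d and 28-d were compared (3 per group, 1 library per rat). The deposited file holds raw counts per mature miRNA and precursor. Per the study's methods, the authors made these counts with miRDeep2 against miRBase, from adaptor-trimmed TruSeq small RNA reads of miRNA length, checked with FastQC and, for origin, against the rn5 genome. No molecular identifiers are described, so the limit of 3 counts cover counting error only.

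For each of 764 mature miRNAs the precursor row with the most reads was kept (71 had several). A miRNA was tested if 3 or more libraries of the 48 held it at 5 RPM or above. edgeR 4.0.16 (R 4.3.3) was used with upper quartile normalization and its quasi-likelihood F-test, in 1 fit of the 9 controls. Time changes of the treated rats, and their differences from that of the controls, came from 1 fit of all 48 libraries. Normalized RPM are counts divided by the effective library size. The fits were tested on simulated data. DEMs had an unadjusted p below 0.05 and a fold change above 1.5, the threshold of the study, and Benjamini-Hochberg adjusted values over all tested miRNAs are given beside. p-values rest on the spread between the 3 rats of a group, estimated over all groups of a fit and with information shared across miRNAs. Alternatives were other scalings, filters and fits, DESeq2 1.42.0, each library left out and, chosen after the data were seen, GC content taken out.

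The miRNAs described are 10 higher and 10 lower DEMs of 28-d versus 7-d with the smallest p and no overlap, and their opposite strands, where tested. Further, they are the 2 most abundant tested members of each of 34 lists and the members called in lists with few DEMs, the 10 most abundant miRNAs, 3 leading miRNAs of each other comparison, miR-122-5p, miR-34a-5p and miR-455-3p. miR-541-5p, miR-449a-5p, miR-17-5p and miR-6321 were added after their values were seen. The comparison, the lists and the rule were chosen with earlier results of these data known. Sequences and positions are from RefSeq (GRCr8), matched by miRNA name.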

Additional observations from a re-analysis of the deposited data

Results flagged for a closer look

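miR-6329 was the single miRNA whose change from 7-d to 28-d differed between treated rats and controls with an adjusted p below 0.05 in edgeR with all 48 libraries and upper quartile normalization. More passed in other fits, among them 11, 7 and 11 at the low, middle and high dose in the Wald test of DESeq2, and 34 at the low dose without low dose 28-d replicate 29. The time change at the high dose minus that of the controls was -2.40 on the log2 scale (edgeR adjusted p = 0.00024). It was between 27.6 and 29.8 normalized RPM in the 3 controls of 7-d and between 34.7 and 44 in the 3 of 28-d, a log2 fold change of 0.45 ± 0.17 (SE) that was not a DEM. In the high dose rats it was between 213 and 235 at 7-d and between 50.7 and 62.4 at 28-d. Both high dose groups lay above both control groups. Every high dose rat was lower at 28-d than every high dose rat at 7-d, and every control was higher at 28-d than every control at 7-d.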

How the results depend on the processing

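Of the 64 DEMs of 28-d versus 7-d, 25 (11 higher and 14 lower) remained DEMs under each alternative that tested them, 34 when each of the 9 libraries was left out, and each kept its sign. Of 58 other miRNAs described, 11 became DEMs under at least 1 alternative (let-7f-5p, miR-130a-3p, miR-143-3p, miR-183-5p, miR-193a-5p, miR-195-5p, miR-210-3p, miR-221-3p, miR-301a-3p, miR-455-3p and miR-93-3p). With TMM, miR-125b-5p, miR-126a-5p, miR-142-5p, miR-21-5p, miR-26b-3p, miR-29a-5p, miR-30d-3p, miR-378a-5p and miR-99a-3p fell under the fold threshold. In the fit of all 48 libraries miR-125b-5p, miR-155-5p, miR-378a-5p, miR-541-5p and miR-6321 were not DEMs either. The number of DEMs was between 46 (GC content taken out) and 87 (no filter), and between 50 and 70 when a library was left out. Of the 6 Dlk1-Dio3 DEMs, miR-127-3p was the only one tested with at least 5 RPM required in each of the 9 controls, and it remained a DEM (log2 fold change -1.18).

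From 7-d to 14-d, the 31 DEMs became 54 with no filter, 18 with at least 5 RPM in each of the 9 controls, 20 in 1 fit of all 48 libraries and 12 with adjusted p. From 14-d to 28-d, the 23 DEMs became 41 with no filter and 4 with adjusted p, and between 23 and 36 with a library left out (36 without 28-d replicate 16). For 14-d against the mean of 7-d and 28-d, the 18 DEMs became 28 with no filter, 9 with at least 5 RPM in 3 of the 9 controls, 6 with that level in each of the 9 and 0 with adjusted p. For the differences in time change, adjusted p left 0 of 40 at the low dose, 0 of 29 at the middle dose and 1 of 47 at the high dose. At the middle dose 51 were DEMs with no filter and 51 in a fit of the 12 libraries compared. With a library left out there were between 20 (without low dose 28-d replicate 28) and 74 (without low dose 28-d replicate 29) at the low dose, and between 19 (without control 28-d replicate 18) and 31 (without control 7-d replicate 4) at the middle dose. Apart from the filters, the cause of these differences was not tested.

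No paired analysis was possible because the replicate numbers run through the whole series and no number is shared between groups. miRNAs under about 0.4 RPM are below 3 counts in the shallowest control library.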

Other observations

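miR-6321, named after its values were seen, had the most negative log2 fold change of the tested miRNAs from 7-d to 28-d (-2.87 ± 0.76, SE, edgeR adjusted p = 0.021). It was at 5.82, 3.79 and 5.25 normalized RPM in the 7-d controls, at 0, 0.524 and 0.0876 at 14-d and at 0.0821, 0.0940 and 2.38 at 28-d, and 4 of the 6 later libraries held at most 1 count. Without 28-d replicate 18, which held 16 counts, the log2 fold change was -5.63, a value that rests on the prior count and is no bound.

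Among the 32 lower DEMs, 28-d replicate 18 was the lowest of the 3 rats in 14, replicate 17 in 12 and replicate 16 in 6. Among the 32 higher DEMs, replicate 18 was the highest in 20, replicate 17 in 7 and replicate 16 in 5.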
